A study of Mus musculus with 6 samples.

Results

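Transcripts of 9 genes of the MHC class I antigen presentation pathway were followed in mouse embryonic fibroblasts (MEFs, connective tissue cells grown out of embryos) with and without Fbxw7. The genes were taken by name as the heavy chains H2-K1, H2-D1, H2-Q4 and H2-T23, the light chain B2m, the peptide loading genes Tap1, Tap2 and Tapbp, and the transcriptional activator Nlrc5. All 9 were found among the 51997 named loci of the deposited tables, and all 9 passed the filter on low counts that left 16787 loci for testing. RNA was sequenced from 3 libraries of Fbxw7 knockout (KO) MEFs and 3 libraries of wild-type (WT) MEFs, which grew in DMEM with 15% FBS and 1% NEAA. No treatment is named in the labels, and the mouse strain, the deleted exons, the age of the embryos, and whether libraries of 1 genotype are separate embryos or cultures are not stated there. The p-values therefore measure only the spread between these libraries, which may be technical.

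MHC class I molecules show peptides from inside the cell to cytotoxic T cells and natural killer cells. Each is built from a heavy chain, encoded in mouse in the H2 complex of chromosome 17, and from beta-2-microglobulin, encoded elsewhere. Peptides are cut by the proteasome, carried into the endoplasmic reticulum by the transporter TAP, and loaded with the help of tapasin. Promoters of heavy chain genes and of B2m carry an SXY module, on which the activator NLRC5 works together with DNA-binding RFX, CREB/ATF and NF-Y proteins, and many class I promoters also respond to interferon and NF-kappaB. Fibroblasts carry class I molecules at rest and more of them after interferon. FBXW7 is the substrate-binding subunit of an SCF ubiquitin ligase, and the comparison was made to find transcripts that differ with its loss.

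The deposited estimated fragments summed to 55720129 to 60402238 in KO libraries and to 62551369 to 64198455 in WT libraries. Replicate 3 stood apart in both genotypes, since the median squared difference from replicates 1 and 2, relative to sampling noise, was 26.5 and 34.2 in KO and 22.2 and 24.6 in WT, while replicates 1 and 2 differed by 5.84 in KO and 6.46 in WT. Fbxw7 itself had 6.01, 6.11 and 5.35 FPKM (a level per transcript length and library size) in KO replicates 1 to 3 and 7.08, 6.67 and 7.28 FPKM in WT replicates 1 to 3, a log2 fold change of -0.16 ± 0.10 (SE) with an adjusted p of 0.332, so its level did not check the genotype. Transcripts of the female-specific Xist spanned 798 to 1046 CPM (a count relative to library size) in KO libraries and 0.213 to 2.17 CPM in WT libraries, and those of the Y-linked Ddx3y 23.97 to 35.9 CPM in KO and 81.8 to 109 CPM in WT, so the sex makeup of the cultures and the genotype cannot be told apart. All 11 fibroblast markers were tested, and their summed level was 23950 to 25942 CPM in KO and 24168 to 32368 CPM in WT. At an edgeR adjusted p under 0.05, 2 of them were lower in KO (Vim and Prrx1) and 2 higher (Lum and Dcn). Of all tested loci, 8.08% were lower and 8.03% higher. Only the call of Lum held without any 1 library. Leukocyte markers summed to 10.9 to 13.7 CPM over 11 genes in KO and 18.7 to 21.2 CPM in WT, with Cd3e, Adgre1 and Tyrobp at 0 in all libraries. Endothelial markers summed to 0.614 to 1.42 CPM over 7 genes in KO and 6.46 to 9.27 CPM in WT, with Tie1 and Cldn5 at 0. The part of these differences in the results that follow was not tested.

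The promoters of 3 genes are shown as examples, since they carry some or all of the letters marked here and their transcripts are described in full below. Each line gives the 250 bases before the RefSeq start (GRCm38.p6), 5′ to 3′ on the strand of the gene. Capitals mark matches, on either strand, to GAANNGAAA (an interferon response element) and a kappaB site (GGGGATT, then any base, then CC). They also mark TGACG and CCAAT, letters that occur in the X box and in the Y box of the SXY module.
H2-K1 (chr17:34000348-34000597, minus strand): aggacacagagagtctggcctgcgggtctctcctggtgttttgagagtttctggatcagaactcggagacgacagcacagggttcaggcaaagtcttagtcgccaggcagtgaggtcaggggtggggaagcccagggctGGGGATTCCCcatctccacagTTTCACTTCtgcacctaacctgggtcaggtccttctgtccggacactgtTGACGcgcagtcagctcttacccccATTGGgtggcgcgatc
H2-Q4 (chr17:35379367-35379616, plus strand): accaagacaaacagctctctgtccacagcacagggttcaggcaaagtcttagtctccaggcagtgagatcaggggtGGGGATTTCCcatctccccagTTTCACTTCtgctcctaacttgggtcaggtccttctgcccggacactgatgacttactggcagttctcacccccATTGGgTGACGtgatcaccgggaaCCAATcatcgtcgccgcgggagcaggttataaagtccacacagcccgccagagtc
B2m (chr2:122147437-122147686, plus strand): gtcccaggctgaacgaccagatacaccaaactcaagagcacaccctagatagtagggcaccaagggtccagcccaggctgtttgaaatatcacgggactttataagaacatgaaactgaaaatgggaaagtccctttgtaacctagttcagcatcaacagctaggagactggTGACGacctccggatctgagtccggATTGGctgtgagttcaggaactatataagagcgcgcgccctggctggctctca

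None of the marked matches overlapped another in these windows. Promoters of 7 members were matched in the RefSeq table by symbol, those of H2-K1, H2-D1, H2-Q4, H2-T23, B2m, Tap1 and Tapbp. The letters of the interferon response element and of the kappaB site, as spelled here, both lay in the promoters of H2-K1, H2-D1 and H2-Q4. They lay in none of the other 4 windows, and in 6.31% and 0.24% of all 32851 promoters of that length. Class I promoters are known for these letters, so the shares are a description and no test. Other spellings were not searched, so an element with other letters or spacing, such as gaaactgaaa in the B2m window, was not counted. TGACG was found in H2-K1, H2-D1, H2-Q4, B2m and Tap1, against 17.8% of all promoters, and CCAAT in all 7, against 33.9%. In H2-K1, H2-D1 and B2m TGACG began at -41, -101 and -78, before ATTGG at -16, -76 and -53. In H2-Q4 TGACG at -73 lay after ATTGG at -79 and before CCAAT at -55, and in Tap1 TGACG at -86 lay after CCAAT at -222. Order and spacing were not part of the search, so a match need not belong to an SXY module. The windows of H2-T23 and Tapbp held the Y box letters alone. These matches describe letters and show no binding.

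In KO cells 4 of the 9 members were lower and 0 were higher at an adjusted p under 0.05 (edgeR quasi-likelihood test, Benjamini-Hochberg over all loci tested), where 8.08% of all tested loci were lower and 8.03% higher. The 4 were Nlrc5, B2m, H2-K1 and H2-D1. At an unadjusted p under 0.05 there were 6 lower and 0 higher members, and the share of all loci at that cut was not counted. The Wald test of DESeq2 called 6 members lower and 0 higher, and it called 3639 of all 16787 loci, 47.9% of these higher. All 9 log2 fold changes lay below 0, with a median of -0.74, against 0.0075 over all loci tested. For 7 members every KO library lay below every WT library, which was the case for 18.4% of loci. In bulk RNA, fewer cells that express a gene and less RNA per cell cannot be told apart. The labels give no H2 haplotype, and a difference in allele changes how reads align. For the polymorphic genes of the H2 complex, a difference in allele and a difference in level cannot be told apart. B2m on chromosome 2 and Nlrc5 on chromosome 8 lie outside the complex. For them too the strain is not stated, and sex makeup and genotype cannot be told apart.

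**Figure D1:**
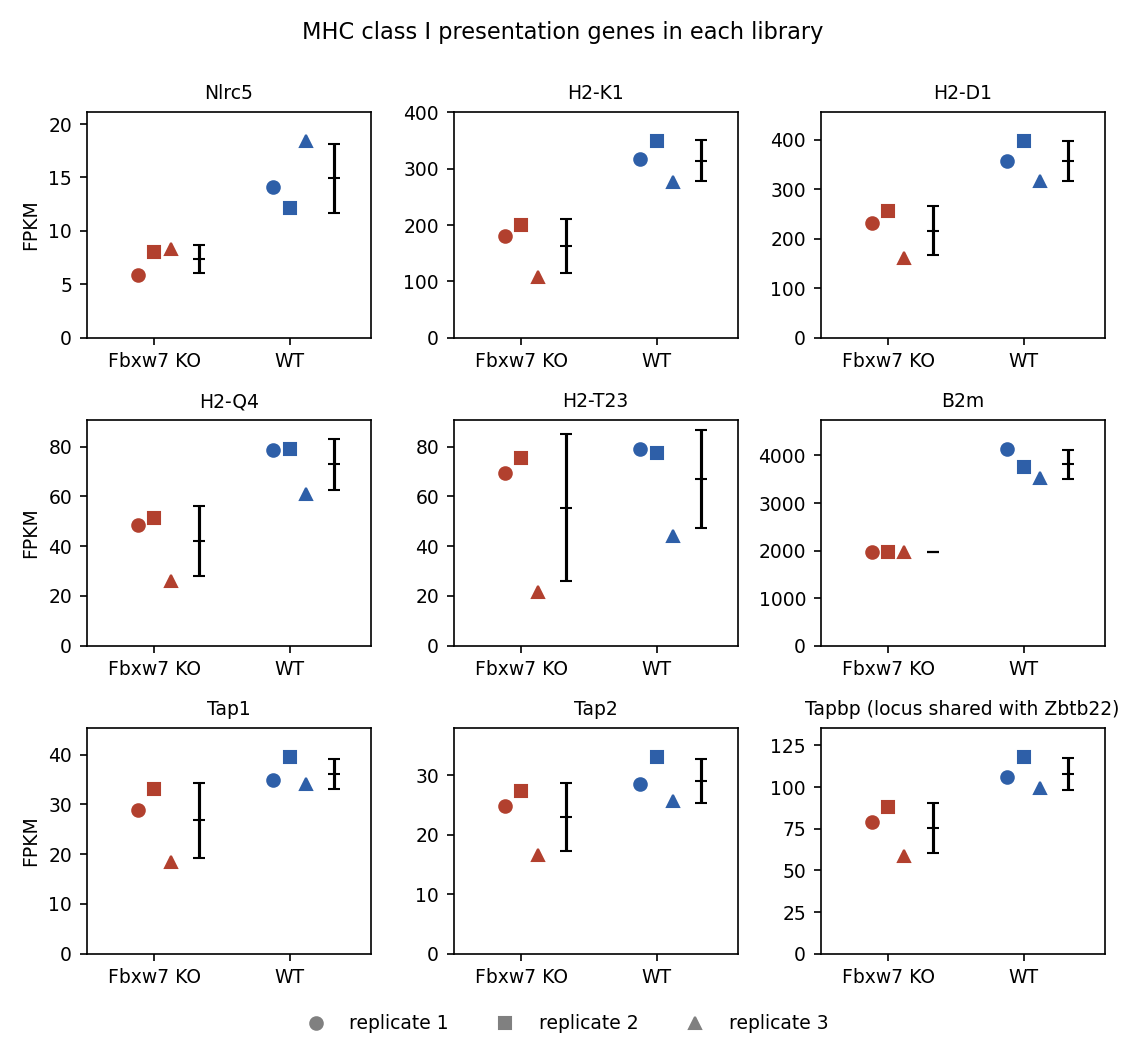
FPKM of the 9 members in each library, 1 panel a gene on its own linear axis from 0, KO left of WT, symbols for replicates, and bars for the mean ± SD of 3 libraries. B2m lies highest at 1968 to 1975 FPKM in KO and 3533 to 4136 FPKM in WT, Nlrc5 lies lowest, and KO replicate 3 is the lowest KO library of most heavy chain and loading genes.

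Nlrc5, which encodes the activator of class I promoters, was lower in KO cells. The gene lies on chromosome 8 at 94434356 to 94527272 on the plus strand (GENCODE M21, GRCm38, the build of mm10). It had 5.84, 7.99 and 8.27 FPKM in KO replicates 1 to 3, against 14.1, 12.2 and 18.4 FPKM in WT replicates 1 to 3. Every KO library was below every WT library, and the KO mean was 49.4% of the WT mean. The log2 fold change was -1.08 ± 0.11 (SE; 95% interval -1.33 to -0.82) with an adjusted p of 0.00103. Counts spread less than FPKM, with 28.5 ± 1.27 CPM in KO cells and 60.03 ± 6.85 CPM in WT cells (SD, n = 3 each). The call held without any 1 library.

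B2m, the light chain shared by all class I molecules of this list, was the most abundant member and fell to a similar share. It lies on chromosome 2 at 122147686 to 122153083 on the plus strand. B2m had 1974, 1975 and 1968 FPKM in KO replicates 1 to 3, against 4136, 3765 and 3533 FPKM in WT replicates 1 to 3. The KO libraries were nearly level with one another and far below all WT libraries, and the KO mean was 51.7% of the WT mean. The log2 fold change was -0.88 ± 0.12 (95% interval -1.15 to -0.61) with an adjusted p of 0.00293, and the call held without any 1 library. When replicates 1 and 2 were added up within each genotype, the adjusted p was 0.0856.

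Both classical heavy chains, which present peptides to cytotoxic T cells, were lower in KO cells. H2-K1 (chromosome 17, 33996017 to 34000347, minus strand) had 181, 199 and 109 FPKM in KO replicates 1 to 3, against 318, 349 and 276 FPKM in WT replicates 1 to 3. The groups did not overlap, and replicate 3 was the lowest library of each genotype. The KO mean was 51.8% of the WT mean, with a log2 fold change of -0.89 ± 0.21 (95% interval -1.38 to -0.40) and an adjusted p of 0.0280.

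H2-D1 (chromosome 17, 35262730 to 35267499, plus strand) followed the same order of libraries. It had 232, 257 and 160.3 FPKM in KO replicates 1 to 3, against 357, 398 and 318 FPKM in WT replicates 1 to 3. The groups did not overlap here either, and the KO mean was 60.5% of the WT mean. The log2 fold change was -0.75 ± 0.18 (95% interval -1.17 to -0.33) with an adjusted p of 0.0299. The calls of both heavy chains depended on single libraries. Without KO replicate 1, WT replicate 1 or WT replicate 2 the adjusted p was 0.0675, 0.0899 and 0.0990 for H2-K1, and for H2-D1 it was 0.0826, 0.0931 and 0.1065, so that 2 members in place of 4 were called in each of these fits. Over all loci those fits called 1169, 1302 and 1271, against 2705 in the main test. Without replicate 3 of both genotypes the adjusted p was 6.66e-07 for H2-K1 and 8.14e-06 for H2-D1, in a fit that called 6993 loci.

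The nonclassical heavy chains of the list did not pass the threshold. H2-Q4, a gene of the Qa region (chromosome 17, 35379617 to 35385290, plus strand), had 48.6, 51.5 and 25.97 FPKM in KO replicates 1 to 3, against 78.7, 79.1 and 61.1 FPKM in WT replicates 1 to 3. Its groups did not overlap, and its log2 fold change of -0.74 ± 0.24 (95% interval -1.31 to -0.17) was close to that of H2-D1, but the adjusted p was 0.0799. Without KO replicate 3 the adjusted p was 0.0424.

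H2-T23 encodes Qa-1, which presents leader peptides of other class I molecules to receptors of natural killer cells. The gene lies on chromosome 17 at 36029773 to 36032855 on the minus strand. It had 69.5, 75.4 and 21.4 FPKM in KO replicates 1 to 3, against 79.0, 77.4 and 44.3 FPKM in WT replicates 1 to 3. The groups overlapped, and replicate 3 of each genotype was far below its other libraries. The log2 fold change was -0.23 ± 0.43 (95% interval -1.23 to 0.77) with an adjusted p of 0.760, and it was 0.15 without KO replicate 3. That interval covers the change of H2-K1. Without replicate 3 of both genotypes, H2-T23 had a log2 fold change of -0.08 ± 0.08, while H2-K1 had -0.78 ± 0.08, and the difference between these genes was not tested.

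None of the TAP and tapasin genes passed the threshold at an adjusted p under 0.05, and their values lay nearer to 0 than those of the classical heavy chains. Tap1 and Tap2 encode the subunits of the peptide transporter and lie side by side on chromosome 17, at 34187553 to 34197225 and 34203527 to 34216321 on the plus strand. Tap1 had 28.8, 33.1 and 18.4 FPKM in KO replicates 1 to 3, against 34.8, 39.5 and 34.0 FPKM in WT replicates 1 to 3. The KO libraries lay below the WT libraries by a narrow margin, and the log2 fold change was -0.40 ± 0.19 (95% interval -0.84 to 0.03, adjusted p 0.185).

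Tap2 had 24.8, 27.4 and 16.5 FPKM in KO replicates 1 to 3, against 28.5, 33.1 and 25.6 FPKM in WT replicates 1 to 3. The groups overlapped, and the log2 fold change was -0.28 ± 0.18 (95% interval -0.70 to 0.14, adjusted p 0.336). Tapbp, which encodes tapasin, was counted as 1 locus together with Zbtb22 (chromosome 17, Tapbp at 33915899 to 33929292, plus strand). That locus had 79.2, 88.1 and 58.6 FPKM in KO replicates 1 to 3, against 106, 118 and 99.3 FPKM in WT replicates 1 to 3. Its groups did not overlap, and the log2 fold change was -0.48 ± 0.16 (95% interval -0.86 to -0.11, adjusted p 0.0829).

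Without replicate 3 of both genotypes, 7 members were lower, all but H2-T23 and Tap2. In that fit the log2 fold changes of H2-Q4, Tapbp and Tap1 were -0.62 ± 0.08, -0.40 ± 0.08 and -0.26 ± 0.08 (SE; 2 libraries a genotype), with adjusted p of 7.76e-06, 0.00106 and 0.0166. H2-T23 had -0.08 ± 0.08 and Tap2 -0.18 ± 0.09 there, with adjusted p of 0.445 and 0.107.

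**Figure D2:**
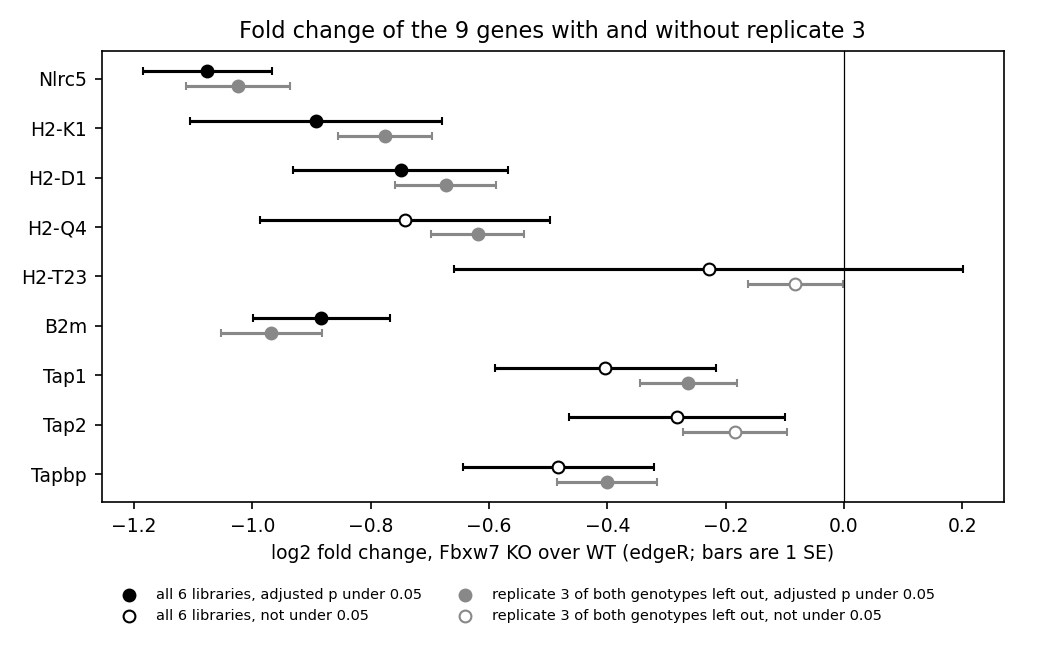
Log2 fold change, KO over WT, of the 9 members with bars of 1 SE, for all 6 libraries (black) and without replicate 3 of both genotypes (grey), filled where the adjusted p is under 0.05. Nlrc5, B2m, H2-K1 and H2-D1 are filled in both fits, and the SE of H2-T23 is 0.43 with all libraries and 0.08 without replicate 3.

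The order of levels per length was alike in both genotypes at its ends. In KO cells B2m averaged 1972 FPKM, followed by H2-D1 at 216, H2-K1 at 163, Tapbp at 75.3, H2-T23 at 55.5, H2-Q4 at 42.0, Tap1 at 26.8, Tap2 at 22.9 and Nlrc5 at 7.37 FPKM. Of these neighbours, those whose libraries did not overlap were B2m and H2-D1, H2-K1 and Tapbp, and Tap2 and Nlrc5. In WT cells the means were 3812 FPKM for B2m, 358 for H2-D1, 314 for H2-K1, 108 for Tapbp, 73.0 for H2-Q4, 66.9 for H2-T23, 36.1 for Tap1, 29.1 for Tap2 and 14.9 for Nlrc5. There the neighbours that overlapped were H2-D1 with H2-K1 and H2-Q4 with H2-T23. H2-Q4 and H2-T23, which stood in opposite order in the genotypes, overlapped in each.

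Ratios between members within a library are given as values, since with 3 against 3 libraries the exact permutation test could not give a p under 0.1. The FPKM of H2-K1 was 9.17%, 10.09% and 5.51% of that of B2m in KO replicates 1 to 3, and 7.68%, 9.28% and 7.81% in WT replicates 1 to 3, and the groups overlapped. The FPKM of H2-T23 was 3.52%, 3.82% and 1.09% of that of B2m in KO and 1.91%, 2.06% and 1.25% in WT, again with overlap. Among 7 such ratios, the share of H2-T23 over H2-K1 was 38.4%, 37.9% and 19.8% in KO and 24.9%, 22.2% and 16.0% in WT, with KO replicate 3 below 2 of the WT libraries.

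Replicate 3 was the lowest library of its genotype for the 7 members of chromosome 17. In KO replicate 3, log2 CPM lay below the KO mean by amounts that ran from -0.34 for Tapbp to -1.14 for H2-T23 in all 7 members of chromosome 17, with H2-Q4 at -0.61 and H2-K1 at -0.51. In the same library B2m stood at 0.04 and Nlrc5 at 0.07. WT replicate 3 showed the same signs for the members of chromosome 17, from -0.12 for Tap1 to -0.57 for H2-T23, while Nlrc5 stood at 0.17 and B2m, at -0.13, lay within their range. What set replicate 3 apart was not tested.

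**Figure D3:**
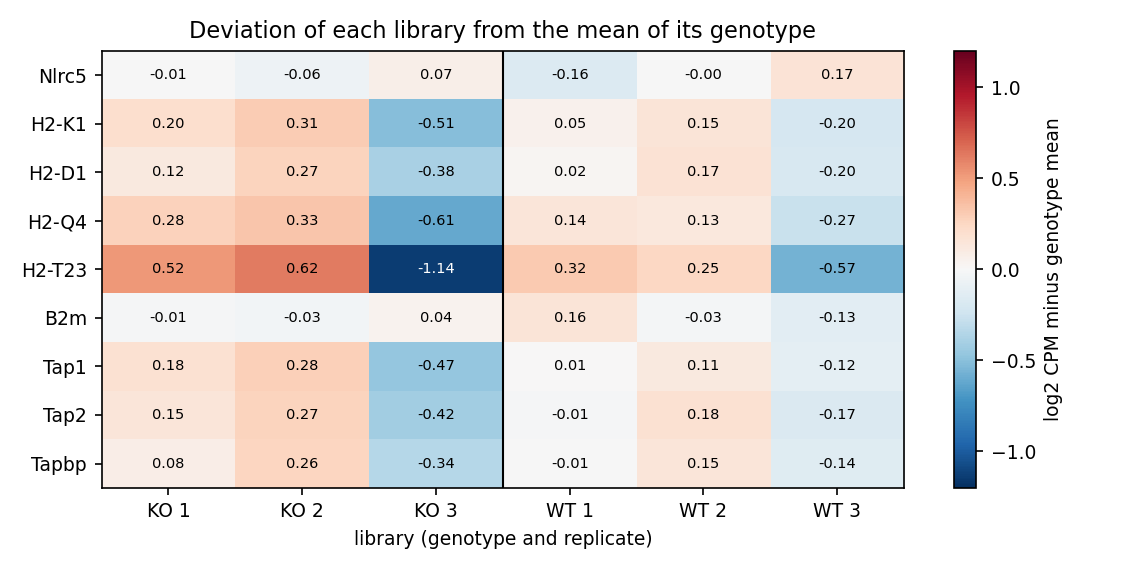
Log2 CPM of each member in each library minus the mean of its genotype, KO libraries left of WT libraries. Replicate 3 of both genotypes is low for the 7 members on chromosome 17, down to -1.14 for H2-T23 in KO, and Nlrc5 stands at 0.07 in KO and 0.17 in WT.

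The levels of other genes were compared with each member by Pearson's r of log2(CPM + 1) over the 6 libraries, among 9634 genes with a mean of at least 10 CPM. These values are a description, since the 6 libraries fall into 2 genotypes and replicate 3 stood apart in each. Most alike to H2-K1 were Pip4k2c (r = 0.999), Smoc2 (0.999) and H2-D1 (0.997), so that 1 classical heavy chain was among the genes nearest to the other. H2-D1 was nearest to Olfml2b, Radil and Zbtb4 (0.997 to 0.999), H2-T23 to the locus of Ctnnb1, Rnf135 and Wipi1 (0.988 to 0.997), and H2-Q4 to BC017643, Smpdl3a and the locus of Igtp and Irgm2 (0.995 to 0.996). B2m was nearest to Arf2 (0.996), the locus of Mir22hg and Tlcd2 (0.995) and the Y-linked Eif2s3y (0.994). Tap1 was nearest to Vat1 (0.999), Tap2 to Rhbdf2 (0.998), Tapbp to Prkd2 (0.999) and Nlrc5 to Myh10 (0.997).

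The other class I heavy chain and class I-like genes moved in both directions. Of 15 tested, 4 were lower and 2 higher in KO cells, with a median log2 fold change of -0.29, beside 8.08% lower and 8.03% higher over all loci. H2-Q6 had 0.720, 0.774 and 0.478 CPM in KO replicates 1 to 3, against 5.21, 5.46 and 7.60 CPM in WT replicates 1 to 3 (log2 fold change -3.21 ± 0.26, adjusted p 0.000476). H2-Q7 had 2.33, 2.07 and 1.40 CPM in KO and 9.66, 9.62 and 10.97 CPM in WT (-2.38 ± 0.21, adjusted p 0.000654). These Qa-2 genes are close copies of one another, so the share of reads given to each is uncertain. H2-Q5, named after its value was seen, also fell, with 0.187 ± 0.044 CPM in KO and 0.900 ± 0.133 CPM in WT (SD, n = 3 each; -2.25 ± 0.31, adjusted p 0.00351).

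H2-T10, a nonclassical gene whose product is bound by gamma-delta T cells, rose. It had 32.6, 33.6 and 31.9 CPM in KO replicates 1 to 3, against 12.5, 12.9 and 9.56 CPM in WT replicates 1 to 3, a log2 fold change of 1.49 ± 0.14 with an adjusted p of 0.000695. Its near copy H2-T22, named after its value was seen, had 142 CPM in KO and 139 CPM in WT on average (0.03 ± 0.20, adjusted p 0.937). Before scaling, the estimated fragments of H2-T10 were whole numbers in all 3 WT libraries and in 0 of 3 KO libraries (tolerance 0.05). Other genes also had values that were not whole, such as Tap1 in all 6 libraries, and what made them so was not tested. Mr1, which lies outside the H2 complex and presents vitamin B metabolites to MAIT cells, rose to 44.0, 40.1 and 48.6 CPM in KO, against 21.7, 18.8 and 16.1 CPM in WT (1.23 ± 0.14, adjusted p 0.00148). Cd1d1, which presents lipids to NKT cells and was named after its value was seen, fell to 5.61 ± 0.45 CPM in KO, against 9.67 ± 1.47 CPM in WT (-0.78 ± 0.16, adjusted p 0.0159). The call of Cd1d1 was lost without KO replicate 1, WT replicate 1 or WT replicate 2 (adjusted p up to 0.0710), and the other 5 calls held without any 1 library.

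The segment of chromosome 17 from Tapbp to H2-M3 held 126 tested loci. Its 13 listed class I genes, 4 of them members, had a median log2 fold change of -0.75, with 5 lower and 1 higher in KO cells. The other 108 loci, listed neither as class I nor as peptide loading genes, had a median of -0.01, with 4 lower and 11 higher. Shares over all loci tested were 8.08% lower and 8.03% higher. Among those 11 was the locus of Gm7030 and the class I pseudogene H2-T-ps (1.26 ± 0.25, adjusted p 0.0139), whose call was lost without KO replicate 1, WT replicate 1 or WT replicate 2. A list of 46 tested genes of the segment chosen by name had a median of -0.02, with Tnxb and Hspa1b lower and Ier3 and C4b higher. The call of C4b was lost without KO replicate 1, KO replicate 2, WT replicate 1 or WT replicate 2.

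Further loci of the segment are given here because of their values, chosen after these were seen. The locus of the complement genes C2 and Cfb had 5.80, 6.04 and 7.41 CPM in KO replicates 1 to 3 and 83.7, 89.99 and 52.1 CPM in WT replicates 1 to 3 (log2 fold change -3.55 ± 0.23, adjusted p 0.000146). Others were higher in KO and near or at 0 in WT. BC023719 had 2.76, 1.63 and 2.92 CPM in KO replicates 1 to 3 and 0 in all WT libraries, at least 147-fold higher than the floor of 3 counts over the WT group. The pseudogene Gm18733 had 0.257, 0.387 and 0.375 CPM in KO and 0 in all WT libraries, at least 20.7-fold higher than the same floor. Gm10499 had 1.39, 2.0015 and 1.13 CPM in KO and 0.168, 0.249 and 0.0654 CPM in WT (log2 fold change 3.21 ± 0.45, adjusted p 0.00390). BC023719, Gm18733 and Gm10499 were detected in every KO library, and an allele difference and a level difference cannot be told apart for them either.

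**Figure D4:**
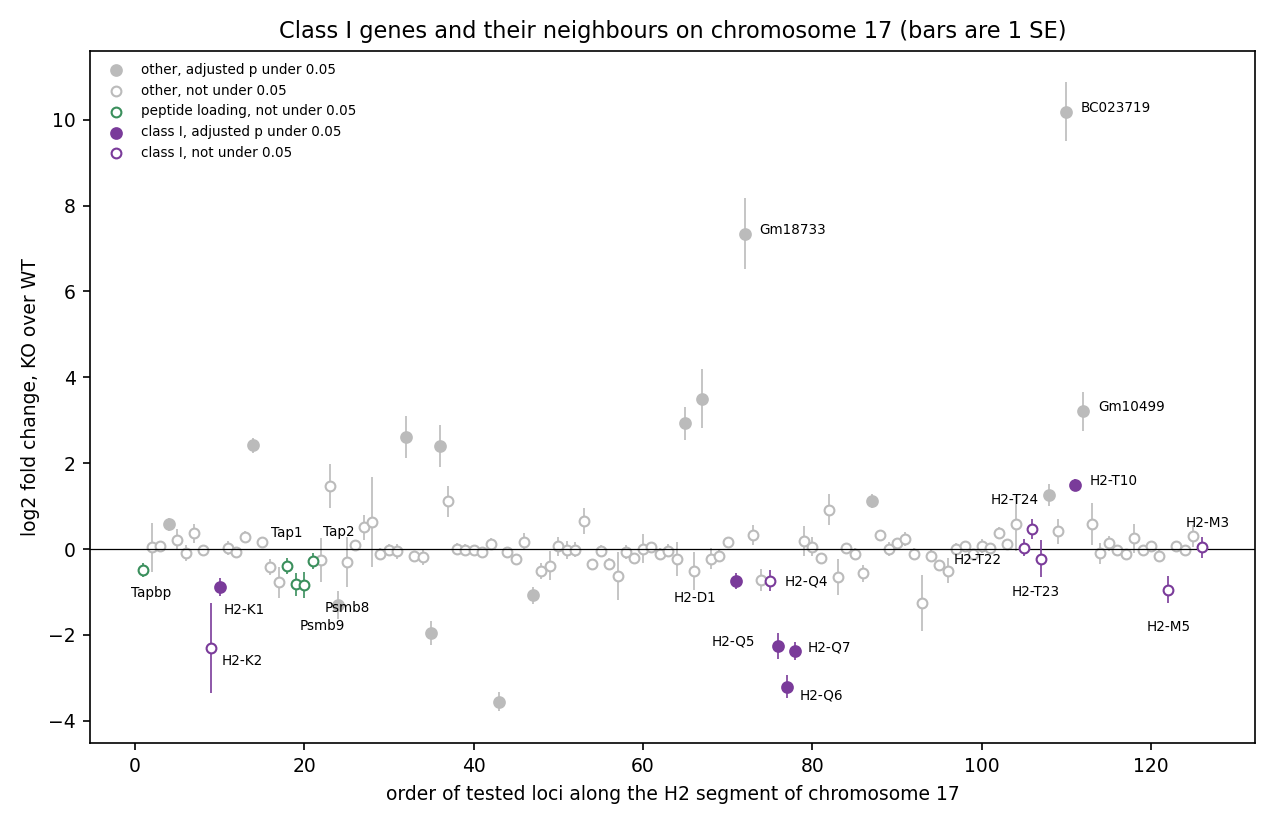
Log2 fold change, KO over WT, with bars of 1 SE, for the 126 tested loci from Tapbp to H2-M3 in their order along chromosome 17. Of the listed class I genes, 5 are lower and only H2-T10 is higher; the fitted values of BC023719 and Gm18733, which had 0 counts in WT, depend on the prior count and show no size.

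Genes that supply and load peptides mostly lay slightly below 0. Of 22 tested, 18 had a log2 fold change below 0, 3 were lower and 1 was higher in KO cells, and the median was -0.19. Over all loci, 8.08% were lower and 8.03% higher, with a median of 0.0075. Psmb10, an immunoproteasome subunit, fell to 18.8 ± 4.75 CPM in KO, against 29.7 ± 1.98 CPM in WT (SD, n = 3 each; log2 fold change -0.66 ± 0.18, adjusted p 0.0476). Erap1, the peptidase that trims peptides in the endoplasmic reticulum, fell to 46.6 ± 6.02 CPM in KO, against 65.8 ± 7.10 CPM in WT (-0.50 ± 0.13, adjusted p 0.0368). Wwp2 and Susd6 belong, in human cells, to a complex that sends class I molecules to degradation. Wwp2 fell by 0.40 ± 0.09 on the log2 scale (adjusted p 0.0206), while Susd6 rose by 0.53 ± 0.14 (adjusted p 0.0398).

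These 4 calls rested on few libraries. Without KO replicate 1, WT replicate 1 or WT replicate 2, edgeR called 0 genes of the list in either direction, with 8, 4 and 6 lower and 1, 2 and 1 higher at an unadjusted p under 0.05. Without KO replicate 2 it called 1 lower and without WT replicate 3 it called 4 lower, each with 0 higher (7 and 8 lower, 2 and 1 higher unadjusted), and without KO replicate 3 it called 6 lower and 1 higher. The DESeq2 Wald test called 7 lower and 1 higher. Over all loci, the fits without KO replicate 1, WT replicate 1 and WT replicate 2 called 1169, 1302 and 1271. Those without KO replicate 2, WT replicate 3 and KO replicate 3 called 1462, 3183 and 3282. The Wald test called 3639 and the main test 2705, with 16787 to 17229 loci tested in these fits. The other immunoproteasome subunits, named after their values were seen, had log2 fold changes of -0.83 for Psmb8 (adjusted p 0.108) and -0.82 for Psmb9 (adjusted p 0.0777), with all KO libraries below all WT libraries.

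Regulators of class I transcription gave few calls. Of 20 tested, Irf7 was lower and Socs3 higher in KO cells, beside 8.08% lower and 8.03% higher over all loci. The median log2 fold change was -0.01. Irf7, a factor of the interferon response, fell to 137, 160 and 68.2 CPM in KO replicates 1 to 3, against 347, 360.3 and 195 CPM in WT replicates 1 to 3 (-1.31 ± 0.34, adjusted p 0.0381). That call was lost in 5 of 6 fits that left out 1 library, all but that without WT replicate 3 (adjusted p up to 0.125). Socs3, an inhibitor of JAK-STAT signalling, rose to 32.8 ± 10.06 CPM in KO, against 9.58 ± 1.30 CPM in WT (1.78 ± 0.24, adjusted p 0.00324), and the call held without any 1 library. Irf1 and Rfx5, which act on class I promoters and are named for that role after their values were seen, had log2 fold changes of 0.02 and -0.03.

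Of 7 tested interferon ligand, receptor and kinase genes, both chains of the interferon gamma receptor fell and the kinases Jak1 and Jak2 rose. Among all loci, 8.08% were lower and 8.03% higher. Ifngr1 fell to 78.7 ± 3.38 CPM in KO, against 110 ± 3.77 CPM in WT (log2 fold change -0.49 ± 0.08, adjusted p 0.00792). Ifngr2 fell to 113 ± 3.15 CPM in KO, against 152 ± 3.85 CPM in WT (-0.43 ± 0.08, adjusted p 0.0119). Jak1 rose by 0.95 ± 0.20 and Jak2 by 0.57 ± 0.12 on the log2 scale (adjusted p 0.0173 and 0.0174). Without KO replicate 1 none of these was called (adjusted p 0.0535 for Ifngr1). Without WT replicate 1 the call of Ifngr1 held alone, and without KO replicate 2 or WT replicate 2 that of Jak1 was lost.

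Of 27 tested interferon-induced genes, 5 were lower and 1 was higher in KO cells, beside 8.08% lower and 8.03% higher over all loci. The median log2 fold change of the list was -0.10. The antiviral enzyme gene Oas3 fell by 4.78 ± 0.22 on the log2 scale, to 1.81 ± 0.42 CPM in KO against 49.8 ± 8.94 CPM in WT (adjusted p 3.23e-05). Oas2 fell by 1.13 ± 0.21, Parp14 by 0.54 ± 0.09 and Ifih1, which encodes a sensor of viral RNA, by 0.53 ± 0.11. The calls of Oas3, Oas2 and Parp14 held without any 1 library. Ifi44 was also lower and Mx2 was higher, both named after their values were seen. The calls of Ifih1 and Mx2 were lost without KO replicate 1, KO replicate 2, WT replicate 1 or WT replicate 2, and that of Ifi44 without KO replicate 2, WT replicate 1 or WT replicate 2.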

How the data were processed

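The deposited data were estimated counts per locus and FPKM per locus, in 2 tables laid out by the authors in the manner of Cufflinks, per the file headers. The submitters' processing notes name mm10 as the build and Cufflinks 2.2.1, TopHat2 2.1.1, deepTools and SAMtools 1.5 as tools; they name no annotation and do not say whether strand was used in counting. In each library 88.9% to 89.5% of the deposited estimated counts up to 1000 were whole multiples (tolerance 0.05) of a step of that library, which shows a single scaling factor per library; before scaling the totals were 57728094 to 70625534 in KO and 51152310 to 66070279 in WT. Cufflinks splits reads among near-identical copies by estimate, and intervals cover no PCR duplication.

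Of 53323 loci, 1317 that carried no name (3.13e-05% of a library or less) and 9 named loci with the status HIDATA were left out; 55 marked FAIL were kept. Estimated counts were rounded, as the design had assumed whole counts, and fitted over all 16787 loci with edgeR 4.0.16 (R 4.3.3), using TMM factors after filterByExpr, a robust quasi-likelihood fit with genotype as its term and a two-sided test. CPM use the same TMM factors. SEs were derived from the fold change and F. FPKM values are the authors' own and serve as levels. The steps were tested on simulated data.

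Alternatives were other scalings and filters, the replicate number as a block, libraries left out, replicates 1 and 2 summed, DESeq2 1.42.0 and limma 3.58.1 on log2(FPKM + 1) or log2(FPKM + 0.1) with a mean FPKM of at least 1, or on log2(FPKM + 1) without that filter. Members, lists and tests were chosen with earlier results of these data known. The text names all members, Fbxw7, up to 4 genes of each list with the smallest adjusted p among those past the threshold, or the 2 most abundant where none passed, and the 3 genes most alike to each member, of which 1 is given for some; other names are marked as chosen after their values were seen. Listed genes whose locus also held another protein-coding gene, listed or not, were left out of list counts. Members were kept, among them Tapbp with Zbtb22. Positions came from GENCODE M21; promoters came from RefSeq (GRCm38.p6), matched by symbol. Python 3.11.15 made tables and figures.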

Additional observations from a re-analysis of the deposited data

How the results depend on the processing

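No member was called higher in any of 20 alternatives (adjusted p under 0.05; 0 higher at an unadjusted p under 0.05 in the main edgeR test and by DESeq2). The number of members called lower, 4 in the main test, ranged from 2 to 5 when 1 library was left out, and was 7 without replicate 3 of both genotypes, 1 with replicates 1 and 2 summed and 1 with limma on log2(FPKM + 1) without a filter. Nlrc5 and B2m were each called in 19 of 20 alternatives, H2-K1 and H2-D1 in 15, H2-Q4 in 4, Tapbp in 3, Tap1 in 1 and H2-T23 and Tap2 in 0; Nlrc5 missed with limma without a filter (adjusted p 0.0534). H2-T23 alone changed sign: its log2 fold change ran from -0.50 to 0.148 with 1 library left out, the highest without KO replicate 3. Over all loci, 2705 were called in the main test, 1169 to 3282 with 1 library left out (the lowest without KO replicate 1), 6993 without replicate 3 of both genotypes, 484 with replicates summed, and 1562, 1615 and 1182 with limma at a pseudocount of 1, of 0.1 and without a filter. Of the listed genes other than members, 29 were called in the main test, 14 to 38 with 1 library left out, 72 without replicate 3 of both genotypes, 5 with replicates summed, and 19 and 14 with limma at a pseudocount of 1 with and without the filter. The causes were not tested.

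With library size as the only scaling the median log2 fold change of all loci was 0.105, in place of 0.0075, and 65.7% of called loci were higher, in place of 49.8%; with limma on log2(FPKM + 1) and a mean FPKM of at least 1 that share was 37.6%, and without the filter 44.6%. All 9 members stayed below 0 under every scaling. Same-numbered libraries of the 2 genotypes deviated together with r = 0.0532, 0.215 and 0.113, the first under 0.1, so the numbers were not taken to pair the samples. KO replicate 1 and WT replicate 1 did not correlate best with each other. With the replicate block 6 members, 31 listed genes and 2356 loci were called. Of the values for single genes and lists, 393 kept their direction and call, or stayed within 1.5 times for a count, under an alternative, 12 lost and 8 gained a call, 115 counts or levels moved and 1 reversed. Depth was no limit for the members, the lowest of which held 1610 fragments before scaling in 1 library; spread between libraries was.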

Other observations

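Class II genes, which professional antigen-presenting cells use, were at low levels. Of 6 tested, H2-Eb1 was lower in KO cells, at 0.272 ± 0.048 CPM, against 0.678 ± 0.191 CPM in WT cells (SD, n = 3 each; log2 fold change -1.31 ± 0.33, edgeR adjusted p 0.0328), and that call was lost whichever library was left out. None was higher at an adjusted p under 0.05 by edgeR or DESeq2, with 1 higher at an unadjusted p under 0.05 in each. Among all loci, edgeR called 8.08% lower and 8.03% higher. Cd74, the invariant chain, and Ciita, the class II counterpart of Nlrc5, both named after their values were seen, stood at 0.652 and 0.215 CPM in KO and at 0.613 and 0.177 CPM in WT.

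Of 4 tested genes for ligands of natural killer and T cell receptors, Clec2d and Nectin2 rose, where 8.03% of all loci were higher. Clec2d, a ligand of an inhibitory receptor of natural killer cells, rose to 70.7 ± 1.87 CPM in KO, against 43.7 ± 6.84 CPM in WT (log2 fold change 0.70 ± 0.12, adjusted p 0.00987), and held without any 1 library. Nectin2 rose to 118 ± 9.39 CPM in KO, against 91.4 ± 5.83 CPM in WT (0.36 ± 0.10, adjusted p 0.0425), a call that held in 1 of 6 fits that left out 1 library, that without KO replicate 3.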
